A study of Mus musculus with 8 samples.

Results

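The genes described are the nuclear receptors CAR (Nr1i3) and PXR (Nr1i2), the cytochrome P450 genes Cyp2b10, Cyp3a11, Cyp3a13, Cyp3a25 and Cyp2c29, and Por and Alas1, which serve the P450 enzymes. They were taken by symbol from the count tables, and all 9 symbols had a single row each among 23282 gene rows. The study gave female CD-1 mice, an outbred stock, bisphenol A (BPA, a plastics monomer) and Korean red ginseng (KRG) after ovariectomy at 6 weeks of age, which removes the main source of estrogen, and 1 week of purification. The control livers and uteri came from ovariectomized animals with neither agent, the BPA group received 200 mg/kg/day, the KRG group 1.2 g/kg/day, and the combined group both agents at these doses, by mouth for 7 days. Each of the 8 groups (4 treatments in liver and in uterus) holds 1 library of 3' end RNA sequencing. Whether it stands for 1 animal or for pooled animals is not labelled, and it is also not labelled if both organs were taken from the same mice. Every animal was ovariectomized, and no intact group was analysed here.

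CAR and PXR are receptors of the liver that sense foreign compounds and steroids. Once active they pair with the retinoid X receptor and raise transcription of genes whose products oxidize, conjugate and export such compounds, with Cyp2b10 the usual marker of CAR in mouse liver and Cyp3a11 that of PXR. Microsomal P450 enzymes need electrons, which POR passes to them, and heme, whose synthesis ALAS1 starts in liver.

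In liver the library totals ran from 12372073 to 15290950 counts, and levels are given as CPM, counts per 1000000 counts of the library. Since 3' end reads do not grow in number with transcript length, CPM was not divided by length. Genes may still differ in how fully the reads of their ends are counted, so levels of different genes compare only roughly. Runs of 4 values give the control first, then BPA, KRG and the combined group. With 1 library per group no pair of libraries was tested. Folds carry an exact Clopper-Pearson 95% interval that covers counting error only, and since no molecular identifiers are named in the labels, PCR copies of a molecule may be counted more than once. In whole tissue, fewer cells of a type and less RNA per cell cannot be told apart. Hepatocyte markers fixed as a list of 12 genes summed to 59236.5 to 65803 CPM in the 4 livers. RNA of other tissues differed between them. The 15 acinar pancreas genes summed to 1651 CPM in the BPA liver and 154 to 239 CPM in the others. Cela1 alone gave 238, 498, 145 and 177 CPM of these sums, and so nearly all of them outside the BPA liver. Of the 15 genes, 9 were at 0 counts in the control liver and 0 in the BPA liver. The 10 skeletal muscle genes summed to 194 and 529 CPM in the control and KRG livers and to 2.93 and 1.70 CPM in the other 2. The 9 erythroid genes summed to 1797 to 7366 CPM. The part of these tissues in the results below was not tested. Totals without those genes left the same members apart between groups, but this only rescales each library and cannot show what other tissues add.

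The stretch of promoter that holds a receptor half-site is shown for 3 of the P450 genes, since Cyp3a11 and Cyp3a25 are neighbours on chromosome 5 whose levels went apart in the combined liver and Cyp2c29 stood high with BPA. The bases are 250 to 121 upstream of the RefSeq transcript start, 5′ to 3′ on the strand of the gene, from RefSeq on GRCm38.p6 (the same build as mm10), at chr5:145879975-145880104 on the minus strand for Cyp3a11, chr5:146009739-146009868 on the minus strand for Cyp3a25 and chr19:39286835-39286964 on the plus strand for Cyp2c29. Capitals mark the hexamers AGGTCA and AGTTCA on either strand, the latter as TGAACT and the former also as TGACCT.
Cyp3a11: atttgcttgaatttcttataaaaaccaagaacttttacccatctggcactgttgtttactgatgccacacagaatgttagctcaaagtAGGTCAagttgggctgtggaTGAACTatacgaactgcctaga
Cyp3a25: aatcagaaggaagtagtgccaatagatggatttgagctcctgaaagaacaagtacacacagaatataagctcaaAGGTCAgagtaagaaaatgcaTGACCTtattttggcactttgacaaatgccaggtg
Cyp2c29: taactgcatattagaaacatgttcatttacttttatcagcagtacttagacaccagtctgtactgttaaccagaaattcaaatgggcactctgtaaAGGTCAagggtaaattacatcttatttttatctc
All 9 genes matched an entry of the promoter table. Within 250 bases upstream, AGGTCA was found in 3 of the 9, the genes shown, and in 14.0% of 32851 promoters, and AGTTCA in 1 of the 9, Cyp3a11, and in 11.8% of promoters. Cyp3a25 held AGGTCA on both strands, at 176 to 171 and 155 to 150 bases upstream. The spaced repeats AGTTCANNNNAGTTCA, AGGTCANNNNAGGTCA, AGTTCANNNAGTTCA and AGGTCANAGGTCA were in 0 of the 9 and in at most 0.0335% of promoters. Only direct repeats were searched, not everted or inverted ones. Enhancers through which CAR and PXR are known to act on Cyp2b and Cyp3a genes also lie farther upstream, and a hexamer here is a description of the letters. Whether a receptor binds it was not tested.

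The receptors varied little between the livers. Nr1i2, which encodes PXR (chr16:38248323-38294824, minus strand), stood at 193, 176, 208 and 187 CPM. The highest level was 1.18 times the lowest. Nr1i3, which encodes CAR (chr1:171213970-171220701, plus strand), stood at 144, 154, 122 and 129.6 CPM. Its highest level, with BPA, was 1.26 times the lowest, with KRG, and both livers given KRG lay below both without it. Among the 6709 genes that averaged 10 CPM or more in liver, 10.6% lay in that order. The BPA library held 1.07-fold (95% interval 1.00 to 1.13) more Nr1i3 than control. The combined library held 1.06-fold (0.991 to 1.13) more than KRG, an interval that includes no difference.

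Nr1i3 overlaps Tomm40l, a gene of the opposite strand whose end lies beside that of Nr1i3, and whether the counting used strand is not given in the sources used here. Tomm40l stood at 2794, 2523, 2366 and 2037 counts in liver beside 2203, 1992, 1784 and 1604 for Nr1i3. In the BPA and combined uteri Tomm40l had 329 and 313 counts where Nr1i3 had 0 and 1.

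**Figure D1:**
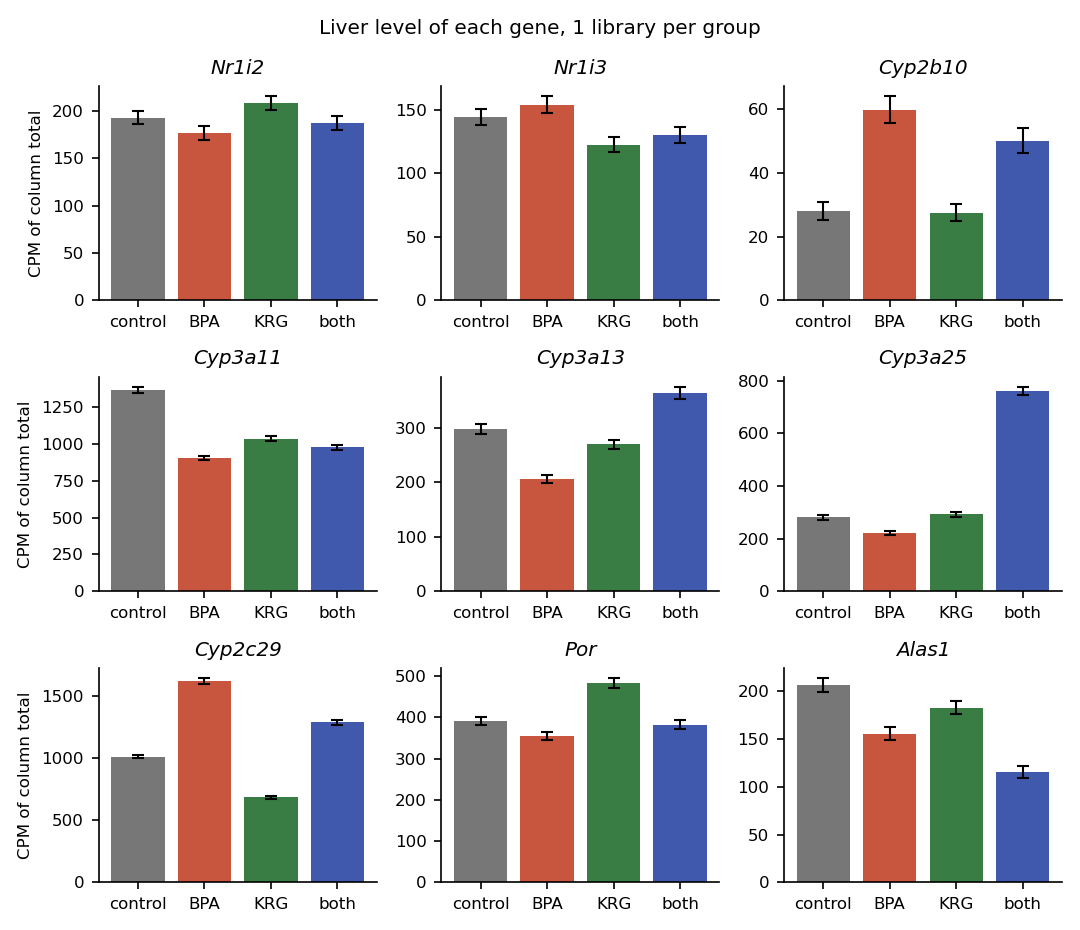
Level of each gene in the 4 liver libraries, in CPM of the library total, 1 bar per library, with exact 95% Poisson intervals that cover counting error only. Cyp2b10 and Cyp2c29 are higher in both livers given BPA, Alas1 is lower in both, and Cyp3a25 is high in the combined liver alone.

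Cyp2b10, the CAR marker gene (chr7:25897620-25926624, plus strand), was higher in both livers given BPA. It stood at 27.9, 59.7, 27.6 and 50.03 CPM, from 427, 774, 402 and 619 counts. The 2 livers without BPA were nearly equal, and neither reached the lower of the 2 livers with it. BPA was 2.14-fold (1.90 to 2.41) above control and the combined library 1.82-fold (1.60 to 2.06) above KRG. Between the livers given BPA, the combined one stood 1.19-fold (1.07 to 1.33) below BPA alone. On the log2(CPM + 1) scale the BPA ratios were 1.07 and 0.84, beside a median of -0.08 and 0.07 over all 6709 genes.

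Cyp2c29, a P450 of arachidonic acid and drug oxidation that CAR activators raise in mouse liver (chr19:39269405-39330713, plus strand), followed the same order of libraries at a higher level. It stood at 1014, 1623, 686 and 1291 CPM. The BPA library was 1.60-fold above control, a log2 ratio of 0.68, and the combined library was 1.88-fold above KRG, a log2 ratio of 0.91. KRG was 1.48-fold below control. Both livers given BPA lay above both without it, as for Cyp2b10, an order that 18.5% of the 6709 genes shared, so that 2 of 9 is near the background.

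The Cyp3a genes, which lie together on chromosome 5 apart from Cyp3a13, did not follow Cyp2b10. Cyp3a11, the usual PXR marker and the highest in CPM of the 3 described (chr5:145854426-145879964, minus strand), stood at 1363, 903, 1032 and 974 CPM. It was highest in control and 1.51-fold (1.48 to 1.55) lower with BPA, and the other 3 livers lay between 903 and 1032 CPM. The combined library was 1.06-fold below KRG. Against BPA alone the combined liver was 1.08-fold higher, a direction that turned with TMM and with DESeq2 size factors (log2 ratio -0.02 with the latter). The same held in this pair for Nr1i2 and Por.

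Cyp3a25, a Cyp3a enzyme of adult mouse liver (chr5:145977194-146009618, minus strand), stood at 281, 221, 292 and 759.5 CPM. The combined library was 2.60-fold (2.51 to 2.70) above KRG and 3.43-fold (3.29 to 3.58) above BPA alone, whereas BPA was 1.27-fold (1.21 to 1.33) below control. The 3 other livers lay between 221 and 292 CPM, so the high level belongs to 1 library. Of the 50-base words in the last 500 bases of its transcripts, 19.2% occur in another gene, mostly Cyp3a59, which itself stood at 30.2, 21.3, 10.2 and 13.0 CPM.

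Cyp3a13, a Cyp3a enzyme also found in gut (chr5:137892932-137921619, minus strand), stood at 297, 206, 269.7 and 364 CPM. It had the same order at the extremes as Cyp3a25, lowest with BPA and highest in the combined library. BPA was 1.44-fold (1.37 to 1.51) below control, and the combined library was 1.35-fold (1.29 to 1.41) above KRG. For Cyp3a13 and Cyp3a25 the BPA ratio therefore had opposite signs without and with ginseng, by a difference of 0.96 and 1.72 on the log2 scale, which has no replicate to test it. Of 8 small intestine markers, 3 were measured (Apoa4, Fabp2 and Anpep), and 2 to 4 of the 8 were at 0 counts in each liver.

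Por, the reductase that supplies P450 enzymes with electrons (chr5:135670033-135735326, plus strand), stood at 390.2, 354, 483 and 382 CPM. It was highest with KRG, 1.24-fold above control. Alas1, the first enzyme of heme synthesis in liver (chr9:106233455-106248654, minus strand), stood at 206, 156, 183 and 116 CPM. BPA was 1.32-fold below control and the combined library was 1.58-fold below KRG, log2 ratios of -0.40 and -0.66. Alas1 was lowest in the combined liver, where Alas2, its erythroid counterpart, was also lowest at 15.9 CPM against 31.0 to 64.5 CPM in the others. The counts of 80 P450 genes of families 1 to 4 summed to 15180, 13778, 12407 and 14260 CPM. Per 100 such counts there were 2.57, 2.57, 3.89 and 2.68 counts of Por and 1.36, 1.13, 1.47 and 0.810 counts of Alas1. These ratios within a library do not depend on the scaling between libraries.

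Both livers given BPA lay below both without it for 4 of the 9 genes, namely Nr1i2, Cyp3a11, Por and Alas1, an order found in 18% of all 6709 genes. Cyp3a25 was the only one of the 9 above in both livers given KRG (17.1% of all genes), and Nr1i3 the only one below. Some of these orders lie within counting error. Cyp3a25 with KRG alone was 1.04-fold (0.997 to 1.09) above control, an interval that includes no difference. The intervals of the control and combined livers overlapped for Nr1i2 (186 to 200 and 179 to 195 CPM) and Por (380 to 400 and 371 to 393 CPM). The same genes were apart under TMM, DESeq2 size factors and totals without the ribosomal RNA precursor Rn45s.

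At least 2-fold ratios were few. BPA against control had Cyp2b10 alone of the 9 at least 2-fold higher, where 1.22% of genes were, and 0 lower, where 3.06% were. With a pseudocount of 5 CPM in place of 1 its log2 ratio was 0.97 and 0 of the 9 were at least 2-fold higher. With TMM scaling those genes numbered 100 higher and 158 lower in place of 82 and 205. The combined liver against KRG had Cyp3a25 alone higher (1.57% of genes) and 0 lower (1.22%), with TMM 85 and 95 genes in place of 105 and 82. KRG against control had 0 of 9 either way (1.04% and 1.3% of genes). The combined liver against BPA had Cyp3a25 alone higher (2.36% of genes, 158 against 109 with TMM) and 0 lower (1.33%, 89 against 109 with TMM). In this last pair the median of all genes stood at 0.12 with totals and at 0.01 with TMM. Relative to that median the combined library was lower than BPA for Cyp2b10 (-0.37), Nr1i3 (-0.36), Cyp2c29 (-0.45) and Alas1 (-0.55), within 0.04 for Nr1i2, Cyp3a11 and Por, and higher for Cyp3a13 by 0.70 and for Cyp3a25 by 1.66. Medians over the 9 were -0.14, 0.08, -0.14 and 0.08 in the 4 pairs, beside -0.08, 0.07, -0.05 and 0.12 over all genes.

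**Figure D2:**
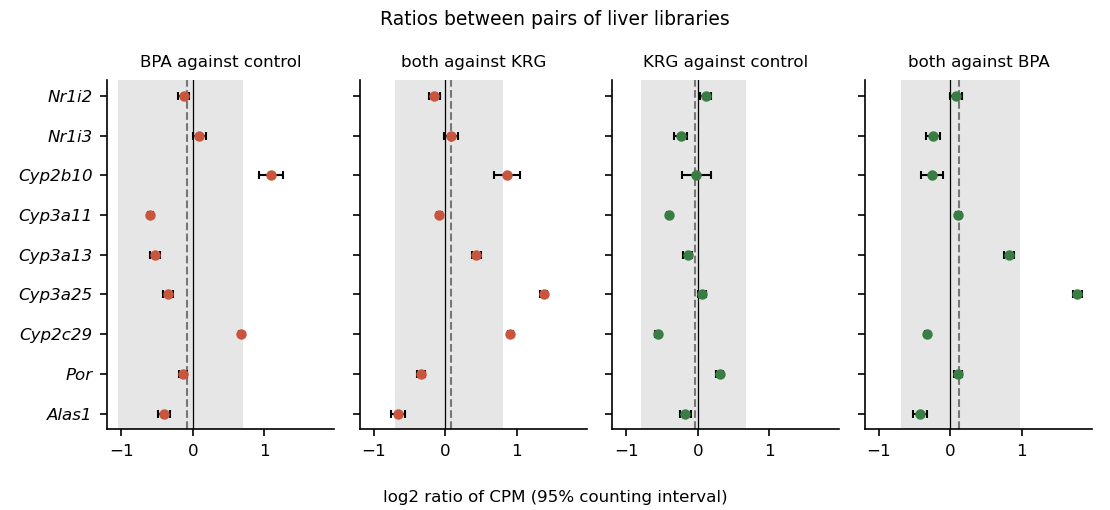
Log2 ratios of CPM between 4 pairs of liver libraries for the 9 genes, with 95% counting intervals, where the dashed line is the median and the grey band the middle 95% of 6709 genes. Cyp2b10 lies beyond the band in both BPA pairs (left panels, which share no library), Cyp2c29 in the second of them, and Cyp3a25 in both pairs that hold the combined liver.

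A model with 1 term for each agent, fitted to the 4 livers, leaves 1 residual degree of freedom and takes any interaction as error. For BPA, edgeR's quasi-likelihood test gave Cyp2b10 a log2 change of 0.98 ± 0.18 (SE; adjusted p = 0.83, unadjusted p = 0.0045, higher in 2 of 2 pairs) and Cyp2c29 one of 0.79 ± 0.18 (adjusted p = 0.84). Alas1 had -0.54 ± 0.18 (edgeR adjusted p = 0.84). None of the 9 passed an adjusted p of 0.05 for BPA or for KRG. Over all 6709 genes the test called 0 higher and 0 lower for each factor, 0% of genes, with 362 genes for BPA and 220 for KRG at an unadjusted p under 0.05. DESeq2 with the same design called 12 higher and 14 lower for BPA and 14 and 35 for KRG, none of the 9 among them, with an adjusted p of 0.13 for Cyp2c29 and 0.29 for Cyp2b10.

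Shares within a gene family do not depend on the scaling either. Cyp2b10 made up 6.65% (exact 95% interval 6.05 to 7.28), 18.8% (17.6 to 19.97), 7.05% (6.40 to 7.74) and 8.57% (7.93 to 9.24) of the Cyp2b counts. The share was thus highest with BPA alone. In the combined liver Cyp2b9 and Cyp2b13, which are female-biased in mouse liver, were themselves at their highest, 248 and 286 CPM. Cyp2b9 stood at 167, 135, 189 and 248 CPM and Cyp2b13 at 224, 123, 174 and 286 CPM, so that they were lowest where Cyp2b10 was highest. Cyp2b10 and Cyp2b13 share 6.59% of the 50-base words at the end of Cyp2b10, which leaves their split partly uncertain.

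Cyp2c29 took 26.6%, 43.1%, 26.7% and 32.4% of the counts of 15 Cyp2c rows, again highest with BPA. Of 15 other Cyp2c genes fixed as a list, 11 were measured, that is, had a mean of at least 10 CPM in liver. With BPA against control 2 of the 11 were at least 2-fold lower and 0 higher (3.06% and 1.22% of all genes). The median log2 ratio of the 11 was -0.20. The 2 lower genes were Cyp2c69 at 343, 81.3, 72.9 and 233 CPM and Cyp2c44 at 329, 128, 273 and 164 CPM. With both against KRG 3 were higher and 1 lower (1.57% and 1.22% of all genes), and the median of the 11 was 0.23. Cyp2c37, another gene that CAR activators raise, stood at 241, 234, 135 and 332 CPM, and Cyp2c67 at 111, 104, 174 and 60.5 CPM. Several Cyp2c copies share sequence at their ends (62.4% of words for Cyp2c40), so that single copies of this family are uncertain. Cyp2c29 shared 0% of such words, but the transcribed pseudogene Cyp2c53-ps overlaps it on the same strand. How reads with several matches were counted is not stated.

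Cyp3a11 took 43.1%, 51.0%, 41.6% and 27.8% of the counts of 9 Cyp3a genes, and Cyp3a25 took 8.86%, 12.5%, 11.8% and 21.6%. The total of the family was 3166, 1771, 2482 and 3509 CPM, lowest with BPA. Most of the rest was Cyp3a41a and Cyp3a41b, female-specific genes of mouse liver that cannot be told apart at their ends, with 36.6%, 23.2%, 32.9% and 34.2%. Cyp3a41a stood at 770.4, 274, 548 and 800.1 CPM. Cyp3a44, also female-specific, stood at 32.3, 8.71, 60.1 and 190.3 CPM and so shared with Cyp3a25 and Cyp3a13 the lowest level with BPA and the highest in the combined liver. Of the 4 other Cyp3a genes measured, Cyp3a44 and the pair Cyp3a41a and Cyp3a41b, which counts as 1 signal, were at least 2-fold lower with BPA than control (3.06% of genes) and at least 2-fold higher in the combined library than with BPA (2.36% of genes).

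**Figure D3:**
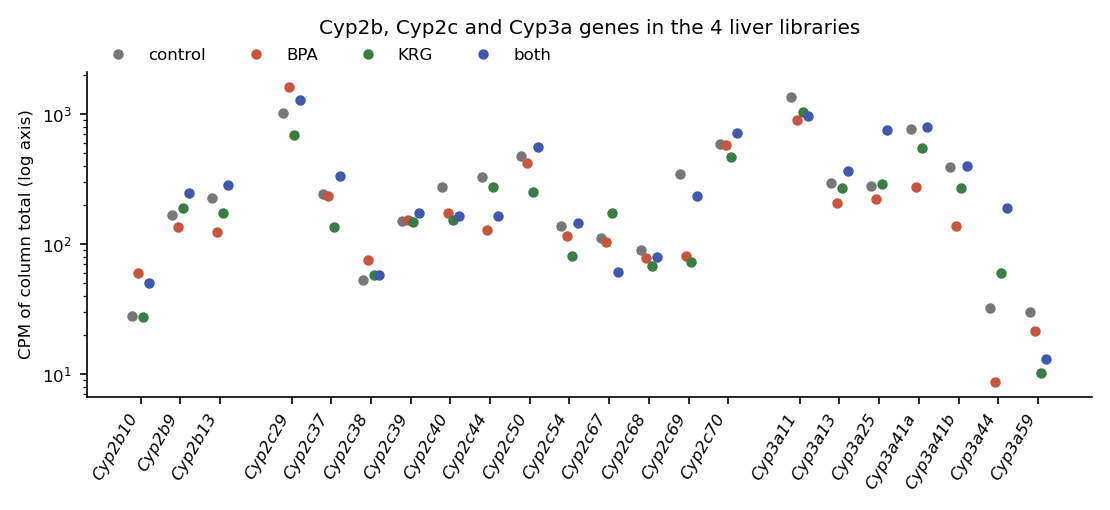
Levels of measured Cyp2b, Cyp2c and Cyp3a genes in the 4 liver libraries, in CPM on a log axis, 1 point per library. Cyp2b10 and Cyp2c29 are highest with BPA, whereas Cyp3a25, Cyp3a41a, Cyp3a41b and Cyp3a44 are lowest with BPA and highest with both agents.

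Other genes that CAR or PXR is known to raise were counted from a list of 39, of which 30 were measured. The list is not separate from the families above. It also holds Cyp2b9, Cyp2c37, Cyp2c50, Cyp2c54, Cyp2c55, Cyp3a16, Cyp3a41a and Cyp3a44. With BPA against control 6 were at least 2-fold higher and 5 lower, where 1.22% and 3.06% of all genes were. Most of the higher were glutathione transferases (Gsta2, Gstm1, Gstm2, Gstm3 and Gstp1), and Cyp3a41a and Cyp3a44 were among the lower. The median log2 ratio of the 30 was 0.00 beside -0.08 for all genes. With both against KRG 7 were higher and 2 lower (1.57% and 1.22% of all genes), with a median of 0.49 beside 0.07. Cyp2c37, Cyp2c50 and Cyp3a44 were among these higher genes. With KRG against control 0 were higher and 1 lower (1.04% and 1.3% of all genes). Gsta2 and Gstm1, glutathione transferases, stood higher in both livers given BPA, Gsta2 at 9.29, 84.0, 11.7 and 27.0 CPM and Gstm1 at 475, 1658, 535 and 1337 CPM. Both were also higher in both uteri given BPA, where Nr1i2 and Nr1i3 had 0 or 1 counts. In uterus Gsta2 stood at 4.56, 11.0, 7.62 and 15.5 CPM and Gstm1 at 143, 1607.5, 91.7 and 2540 CPM. The part of the receptors in these levels was not tested. Sult2a1, a sulfotransferase of steroids and bile acids that is female-biased, was at 2.16, 0.154, 1.64 and 42.5 CPM, high in the combined liver as Cyp3a25 and Cyp3a44 were. Ces2a, a carboxylesterase, was at 200.2, 178, 150.4 and 29.7 CPM and so was low in the same library.

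Of 22 partners and coregulators of the receptors, 19 were measured. BPA against control had 0 at least 2-fold higher and 1 lower (1.22% and 3.06% of all genes). The lower gene was Egfr, the growth factor receptor whose signal keeps CAR in the cytoplasm. Egfr stood at 85.5, 38.7, 44.5 and 22.3 CPM, highest in control and lowest with both agents. The combined liver against KRG had 1 lower (1.22% of all genes), Nr0b2, which encodes the corepressor SHP. Nr0b2 stood at 61.2, 46.3, 82.6 and 38.1 CPM. Ppargc1a, a coactivator of fasting metabolism, stood at 10.9, 19.2, 26.0 and 12.6 CPM, and Foxo1, a fasting factor that can bind CAR, at 43.0, 73.5, 82.7 and 42.9 CPM. For both, the single treatments were above control and combined.

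Genes that serve P450 enzymes beside Por and Alas1 were counted in the same way. Of 7 electron transfer and heme turnover genes and 10 measured genes of the heme pathway after Alas1, 0 were at least 2-fold apart on the log2(CPM + 1) scale in any of the 4 pairs. Of all genes 1.04% to 3.06% were so in each pair and direction, so that 0 of so few is near the background. Fech, which inserts iron at the last step, stood at 55.3, 52.8, 49.0 and 63.8 CPM, so that it was at its highest in the combined liver, where Alas1 was at its lowest. Abcb10, a mitochondrial transporter of the heme pathway, stood at 41.3, 21.9, 32.6 and 40.7 CPM. Hmox1, which breaks heme down, stood at 18.3, 14.6, 9.11 and 15.4 CPM, by CPM without the added 1 a level 2.01-fold lower with KRG than in control.

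Cyp2b10 and Cyp2c29 are most active around the central vein of the liver lobule. The 9 measured markers of pericentral hepatocytes had a median log2 ratio of -0.45 with BPA against control and -0.08 with both against KRG, with 0 of 9 at least 2-fold apart in either. Cyp2e1 stood at 1406, 864, 1148 and 808 CPM, lower in both livers given BPA. Periportal markers had a median of 0.25 and 0.21 in the same pairs. For BPA against control 1 gene of 10 was past 2-fold in each direction (1.22% of all genes higher, 3.06% lower), and 0 in the other pair. They did not move one way, with Etnppl at 51.7, 134, 106.5 and 60.5 CPM, Cyp2f2 at 484, 935, 511 and 590.4 CPM, Sds at 60.04, 21.6, 50.6 and 53.99 CPM and Ctsc at 65.7, 34.0, 52.02 and 59.97 CPM. Hepatocyte markers had a median of -0.10 and 0.14, with 0 of 12 at least 2-fold apart. The part of zonation in the levels of Cyp2b10 and Cyp2c29 was not tested.

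**Figure D4:**
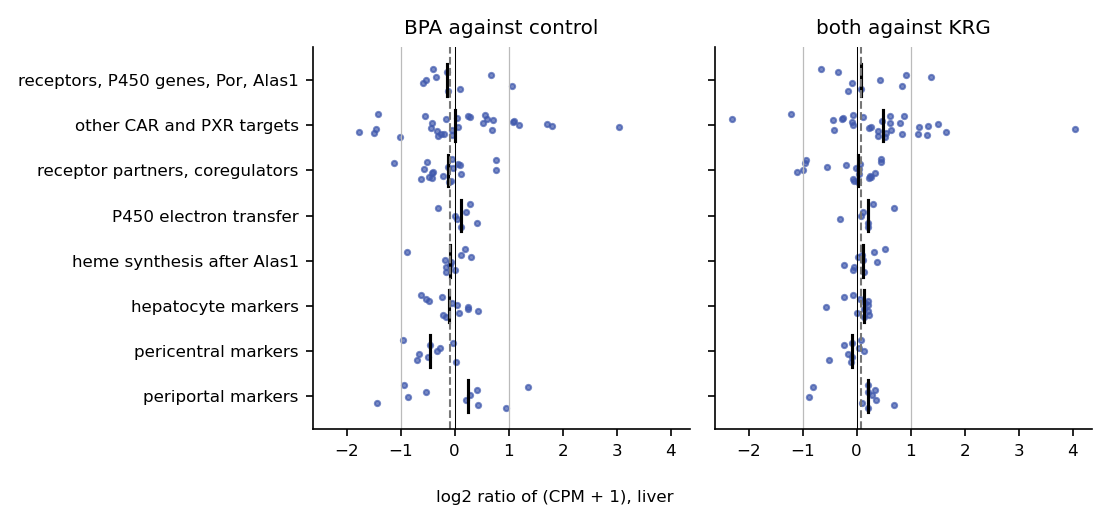
Log2 ratios of (CPM + 1) for genes of 8 lists in the pairs of liver libraries that differ in BPA, 1 point per gene, with the list median as a black bar, the median of all genes as a dashed line and 2-fold as grey lines. The other CAR and PXR targets, some of them Cyp2b, Cyp2c and Cyp3a genes, spread on both sides of 0 with BPA alone. They have a median of 0.49 in the pair given ginseng.

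The genes whose pattern over the 4 livers was nearest, by Euclidean distance of centred log2(CPM + 1), differed by member. For Cyp2b10 they were Cct6a, a chaperonin subunit, Adck3 and Abcb11, the bile salt export pump, at distances of 0.22, 0.22 and 0.24. Abcb11 stood at 132, 302, 161 and 281 CPM. For Cyp2c29 they were Rps3a1, Dtx4 and 9030617O03Rik (0.089 to 0.19). For Cyp3a11 they were Slc17a2, Col27a1 and Cisd2 (0.056 to 0.077). Nr1i2 had Plekha6, Cpsf2 and Pqbp1, and Nr1i3 had Aldh5a1, Metap1 and Cops4, all within 0.033. Over 4 libraries such likeness is a description only.

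In uterus the genes were of 2 kinds. Por and Alas1 were present in all 4 uteri, Por at 85.6, 109.7, 118.9 and 131 CPM and Alas1 at 37.0, 43.3, 46.0 and 31.2 CPM. These were 21.9% to 34.4% of the matching liver level for Por and 17.9% to 27.8% for Alas1. Tmem120a, a gene of the opposite strand, lies within 500 bases of the end of Por and had 579, 551, 1571 and 774 counts in uterus beside 1145, 1505, 1545 and 1940 for Por. Since the use of strand is not stated, reads of these neighbours may not be told apart, and the antisense gene 4930500F10Rik overlaps Alas1 likewise. The other 7, the receptors and the P450 genes, stood at 0.523 to 15.5 CPM in the control uterus and 2.16 to 42.1 CPM in the KRG uterus, and at 0 to 1.31 CPM in the 2 uteri given BPA. Cyp3a11, for example, had 208, 6, 333 and 0 counts, Cyp2c29 had 182, 2, 547 and 0, and Nr1i2 had 21, 1, 82 and 0. A count of 0 allows up to 0.269 CPM in the BPA uterus and 0.249 CPM in the combined uterus (upper end of the exact 95% Poisson interval).

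Hepatocyte markers were at a like share of their liver level in the control and KRG uteri. As a percentage of the liver library of the same treatment, the 7 genes had a median of 1.14% (range 0.814 to 1.87) in control and 3.04% (2.40 to 7.82) with KRG, against 0.0090% (0 to 0.636) with BPA and 0.0089% (0 to 0.405) with both. The 12 hepatocyte markers, Alb and Apoa1 among them, had medians of 1.32% (0.774 to 3.18) and 2.97% (1.53 to 6.89), against 0.041% (0 to 0.501) and 0.014% (0 to 0.789). They summed to 914, 47.2, 1914 and 57.8 CPM in the 4 uteri. No hepatocyte marker was at 0 in the control or KRG uterus, and 1 of 12 was at 0 in each uterus given BPA, Cps1 with BPA and Tat with both.

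**Figure D5:**
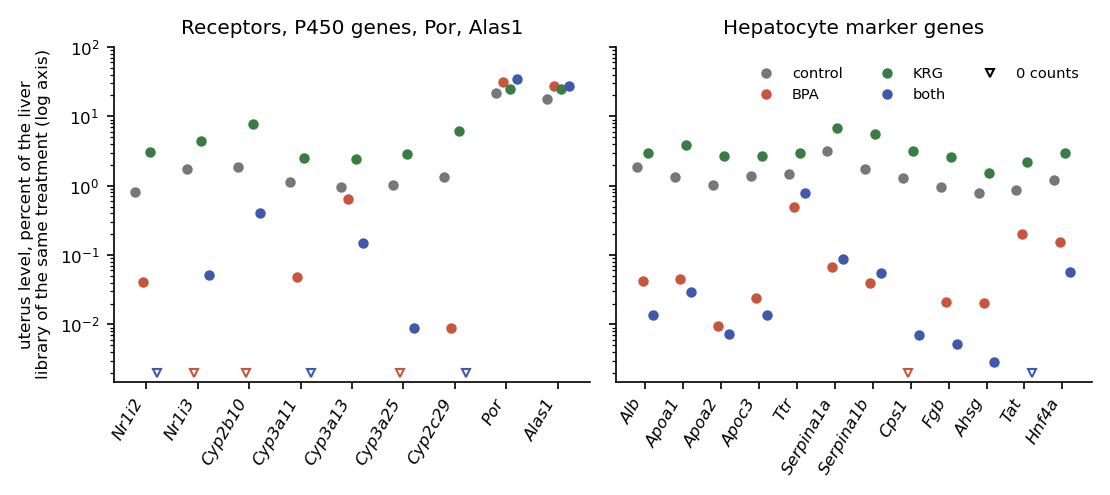
Level in each uterus library as a percentage of the liver library of the same treatment, on a log axis, for the 9 genes and for 12 hepatocyte markers, where open triangles are 0 counts. Por and Alas1 stand at 17.9% to 34.4% under every treatment, and the other 7 have medians of 1.14% in control and 3.04% with KRG, near those of the hepatocyte markers. With BPA their median is 0.0090%, below the 0.041% of the markers, while Cyp3a13 at 0.636% lies above every marker. That median is 2 counts of Cyp2c29, and 1 count of Nr1i2 already makes 0.041%, so the medians with BPA are not compared further.

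All 9 genes were higher in liver than in uterus in a model of tissue and treatment over the 8 libraries (edgeR's quasi-likelihood test, Benjamini-Hochberg adjustment). The test called 34% of 8687 genes higher in liver, and 39.2% lower, and 7 of the 9 owe most of the level that passed the filter to liver, so nothing is read from this count. The fit gave Por a log2 difference of 2.59 ± 0.19 (SE; adjusted p = 0.00016) and Alas1 one of 2.78 ± 0.17 (adjusted p = 8.8e-05). Fitted values of the other 7 rest on counts near 0 and are not given as folds. Without the control and KRG uteri, all 9 remained higher in liver. For the other 7 this was fixed in advance, since the uteri left held 0 to 18 counts of them.

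The difference of the BPA effect between liver and uterus was tested in the same way with a tissue by BPA term. For the same reason nothing is read from the count of genes with a higher BPA term in liver, which held 6 of the 9 (Nr1i2, Nr1i3, Cyp2b10, Cyp3a11, Cyp3a25 and Cyp2c29), 2.52% of 8687 genes and 10 of the 12 hepatocyte markers (edgeR adjusted p under 0.05). The 6 genes had 0 to 6 counts in the uteri given BPA. None of the 9 had a lower BPA term in liver, where 0.518% of genes did. The uterus libraries without BPA are those with 914 and 1914 CPM of hepatocyte markers, so the term moved with the hepatocyte markers in the uterus libraries and is no measure of BPA on these genes in uterus. Por (-0.43 ± 0.29, SE, edgeR adjusted p = 0.61) and Alas1 (-0.31 ± 0.36, edgeR adjusted p = 0.79), which had counts in all 4 uteri, did not pass, nor did Cyp3a13 (edgeR adjusted p = 0.30, DESeq2 adjusted p = 0.031).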

How the data were processed

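Gene expression was measured with QuantSeq 3' end libraries from 500 ng of total RNA, per the labels' protocols. Each deposited file gives the unnormalized counts of 1 library by gene symbol. Per the submitters' processing notes, Bowtie2, edgeR and the mm10 build were used. Versions, the counter, the use of strand and the treatment of reads with several matches are not stated in the labels. Of the symbols, 35 occur more than once, and their rows were kept apart.

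Levels are counts per 1000000 of the column total (CPM). Ratios between liver libraries are on the log2(CPM + 1) scale among 6709 genes that averaged 10 CPM or more, and folds are ratios of CPM. At least 2-fold on the log2(CPM + 1) scale counted as different. Tests were edgeR 4.0.16 quasi-likelihood fits in R 4.3.3 with TMM factors, Benjamini-Hochberg adjustment over all genes tested and a threshold of 0.05, with the designs named beside each result. The fits were run on simulated counts with known changes. These had a common dispersion for all genes and no effect beyond the one tested, so they cannot show how the tests err on these data. DESeq2 1.42.0 was an alternative. An SE is the log2 change divided by the square root of its F value. Gene positions are from GENCODE M21, on the build of mm10, and shared 50-base words were counted in its transcripts. The labels name no separate cultures or animals, so p-values measure only the spread between these libraries.

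The members, the gene lists and the rules were chosen with earlier results of these data known. Apart from the 9 genes, up to 4 genes per list with the largest ratio in the pairs that differ in BPA were named, part of which is described, and the 3 nearest genes of 5 members. Tomm40l, Cyp2c40 and the fit without the control and KRG uteri were chosen after values were seen.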

Additional observations from a re-analysis of the deposited data

Results flagged for a closer look

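The tissue by BPA term of edgeR's quasi-likelihood test (log2 change in liver minus that in uterus) passed for 6 of the 9 genes, which had 0 to 6 counts in the uteri given BPA, and is no measure of BPA on these genes in uterus. The term was 6.30 for Nr1i2, 6.59 for Nr1i3, 4.65 for Cyp2b10, 6.21 for Cyp3a11, 7.54 for Cyp3a25 and 9.20 for Cyp2c29. Fits on counts near 0 depend on the prior count, so these sizes are not folds. In the control and KRG uteri, 12 hepatocyte markers summed to 914 and 1914 CPM, against 47.2 and 57.8 CPM in the uteri given BPA, and the same term passed for 10 of the 12 with a median of 6.38.

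The ratio with KRG had opposite signs in liver and uterus for Nr1i3, where the mean log2 ratio in liver was below that in uterus (difference -0.70), and for Cyp2b10 (difference -0.79). Neither difference was tested. The uterus side rests on 34, 0, 69 and 1 counts of Nr1i3 and 7, 0, 28 and 3 counts of Cyp2b10 in control, BPA, KRG and combined uteri, and the hepatocyte markers were also highest in the KRG uterus. In liver these genes stood at 144 and 122 CPM (Nr1i3) and 27.9 and 27.6 CPM (Cyp2b10) without and with KRG, and the sign of the latter turned with TMM scaling.

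Within liver, the ratio with BPA had opposite signs with and without KRG for Cyp3a13 (difference of log2 ratios 0.96) and Cyp3a25 (difference 1.72). Each rests on 1 library per group and was not tested.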

How the results depend on the processing

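Over the 9 genes, 4 liver pairs and 8 other settings (scaling, pseudocount, filter), no ratio of at least 2-fold changed its direction. Cyp2b10 in BPA against control came to 0.97 with a pseudocount of 5 CPM, where 0 of 9 were at least 2-fold higher, and to 1.16 with DESeq2 size factors. With that pseudocount 123 genes were lower in BPA against control and 98 higher in both against BPA, and DESeq2 size factors gave 105 for the latter. A mean of at least 1 CPM gave 161 genes higher and 431 lower for BPA against control, 212 and 211 for both against KRG, 158 and 159 for KRG against control and 354 and 173 for both against BPA. No filter on low counts gave 175 and 460, 230 and 263, 192 and 176, and 397 and 189 in the same order, with more genes tested. In the additive model of liver, DESeq2 called 12 higher and 14 lower for BPA and 14 and 35 for KRG. With a mean of at least 1 CPM edgeR called 2 lower for BPA and 2 higher for KRG, with no filter 9 higher and 23 lower for BPA and 5 and 20 for KRG, and with column totals 1 higher for KRG. None of the 9 was called in liver under any of these. Between tissues, column totals gave 1716 genes higher in liver and 5214 lower, and the wider filters 5260 and 5602 lower. Leaving out each library in turn gave 2621 to 2817 higher and 2831 to 3255 lower. All 9 stayed higher in liver, from which nothing is read for the 7 that owe most of their level to liver. Leaving out the control and KRG uteri, chosen after seeing the data, gave 2607 and 2681. For the tissue by BPA term DESeq2 called 132 lower and no filter 90. Of all values that are not counts, 501 stayed the same, 1 passed its test only in another setting, and 56 moved by more than their counting interval allows. The 56 were ratios between liver libraries under TMM, DESeq2 size factors or totals without Rn45s, settings that rescale whole libraries. No paired analysis was possible because the labels give no replicate numbers and each group holds 1 library. The depth of Cyp2b10, 402 to 774 counts, is the smallest of the 9 in liver.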

Other observations

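Genes of the dioxin receptor AHR, which shares drug-metabolizing targets with CAR, were measured for 2 of 6 in liver. Cyp1a2 stood at 358, 352, 261 and 247 CPM in the order control, BPA, KRG and combined, lower in both livers given KRG. Nqo1, a quinone reductase, stood at 4.71, 12.4, 9.32 and 20.4 CPM, at its lowest in control and at its highest in the combined liver.

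Acute phase genes, made by hepatocytes in inflammation, summed to 18982, 19553, 24600 and 31836 CPM over 20 genes, so that they were at their highest in the combined liver. Lcn2 stood at 3.34, 12.8, 30.3 and 41.0 CPM. Macrophage markers summed to 571, 432, 597 and 797 CPM over 10 genes and neutrophil markers to 8.89, 9.48, 19.8 and 102 CPM over 7. Hepatic stellate markers summed to 380.0, 258, 354 and 328 CPM over 8 genes. The combined liver, where these sums were above the other 3 except for the stellate genes, was also that with the highest Cyp3a25 and the lowest Alas1.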
